A study of Mus musculus with 12 samples.

Results

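The 39 genes described here are interferon-stimulated genes, including the transcription factor Irf7, in the liver of septic mice. They were taken by symbol from a table of 25611 genes, and all 39 passed the low-count filter that left 13190 genes. Irf7 chose the list: its level was lower in septic mice and higher in septic mice given dichloroacetate, and the question is whether the other 38 genes follow it. Those 38 were listed for their known place in the interferon response, by a choice made with earlier results of these data in view. Values of Irf7 in these comparisons are therefore given as a description without a test.

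RNA of whole liver was sequenced from 12 male C57BL/6J mice, 8–10 weeks old, with 4 mice in each of 3 groups. Sham mice had an abdominal incision only. CLP mice had cecal ligation and puncture, an operation that leads to polymicrobial sepsis. CLP+DCA mice had the same operation and received dichloroacetate (DCA), an inhibitor of pyruvate dehydrogenase kinases, at 25 mg/kg intraperitoneally 24 hr post-surgery. All mice received subcutaneous saline and livers were collected 30 hr post-surgery, which is 6 hr after DCA. Per the labels all mice were injected at 24 hr, and what sham and CLP mice received is not given in the sources used here. Also, sham mice given DCA were not analysed here. Each mouse had 24436513 to 44266819 reads on genes, and levels are given in CPM, read counts scaled to TMM-normalized library sizes. Albumin and the other 11 hepatocyte markers were all read in every group, with a summed level of 35640 to 92160 CPM over the 12 mice.

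Interferons are secreted by cells that sense microbial nucleic acids or endotoxin. Type I interferons bind the receptor of IFNAR1 and IFNAR2, whose kinases JAK1 and TYK2 phosphorylate STAT2, and STAT2 acts with IRF9 in the complex ISGF3, which binds the interferon-stimulated response element (ISRE) in target promoters. Irf7 is itself such a target and, once phosphorylated, drives transcription of the type I interferon genes. The induced proteins block viral RNA and membranes, sense nucleic acids, or attack the vacuoles of intracellular microbes.

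The ISRE core, spelled GAAANNGAAA and searched on both strands, gives the list its sequence context. RefSeq promoters (GRCm38.p6, 250 bases before to 50 after each gene start) were matched for 28 of the 39 genes, and 17 of them (60.7%) hold the core, against 3.99% of 27025 genes with a promoter in the table. The interferon-gamma-activated site, spelled TTCNNNGAA, was found for 7 of the 28 (25%) against 9.55% of all. The windows below show the core in capitals for genes whose CLP mice all lay below every sham mouse (Isg15 to Gbp3) and for genes whose CLP and sham mice overlapped (Oas1a to Ddx58), each read 5′ to 3′ on the strand of the gene. 
Isg15, chr4:156200871-156200900, minus strand: gtagGAAAAGGAAACCGAAACAGAAAatag
Ifit1, chr19:34640794-34640823, plus strand: ccagtctcagTTTCAGTTTCtcactgctga
Ifit3, chr19:34583397-34583426, plus strand: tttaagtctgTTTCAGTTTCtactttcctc
Bst2, chr8:71537580-71537609, minus strand: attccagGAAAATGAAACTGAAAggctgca
Gbp3, chr3:142559992-142560021, plus strand: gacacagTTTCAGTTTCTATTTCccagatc
Oas1a, chr5:120907523-120907552, minus strand: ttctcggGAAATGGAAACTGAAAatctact
Stat2, chr10:128270266-128270295, plus strand: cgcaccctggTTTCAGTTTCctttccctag
Ddx58, chr4:40239804-40239833, minus strand: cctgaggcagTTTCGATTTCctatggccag
The letters TTTCAGTTTC are held by Ifit1, Ifit3, Gbp3 and also by Stat2, so the core alone does not separate these 2 kinds of genes. The windows of 11 genes hold no match, among them Irf7, Irf9, Oasl1 and Cmpk2. A match is a description of the letters in the window and was not tested as a binding site.

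Irf7 (NCBI Gene 54123, mm10 chromosome 7 from 141263183 to 141266424, minus strand) had 31.3, 31.8, 31.4 and 25.8 CPM in sham, 20.1, 18.5, 20.6 and 18.2 CPM in CLP, and 36.6, 41.0, 43.2 and 30.7 CPM in CLP+DCA. Every CLP mouse was below every mouse of the other groups, and 3 of the 4 CLP+DCA mice were above all sham mice. The means were 30.1 ± 2.88, 19.3 ± 1.16 and 37.9 ± 5.49 CPM (SD, n = 4 each). On the log2 scale, CLP differed from sham by -0.64 and CLP+DCA from CLP by 0.97.

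**Figure D1:**
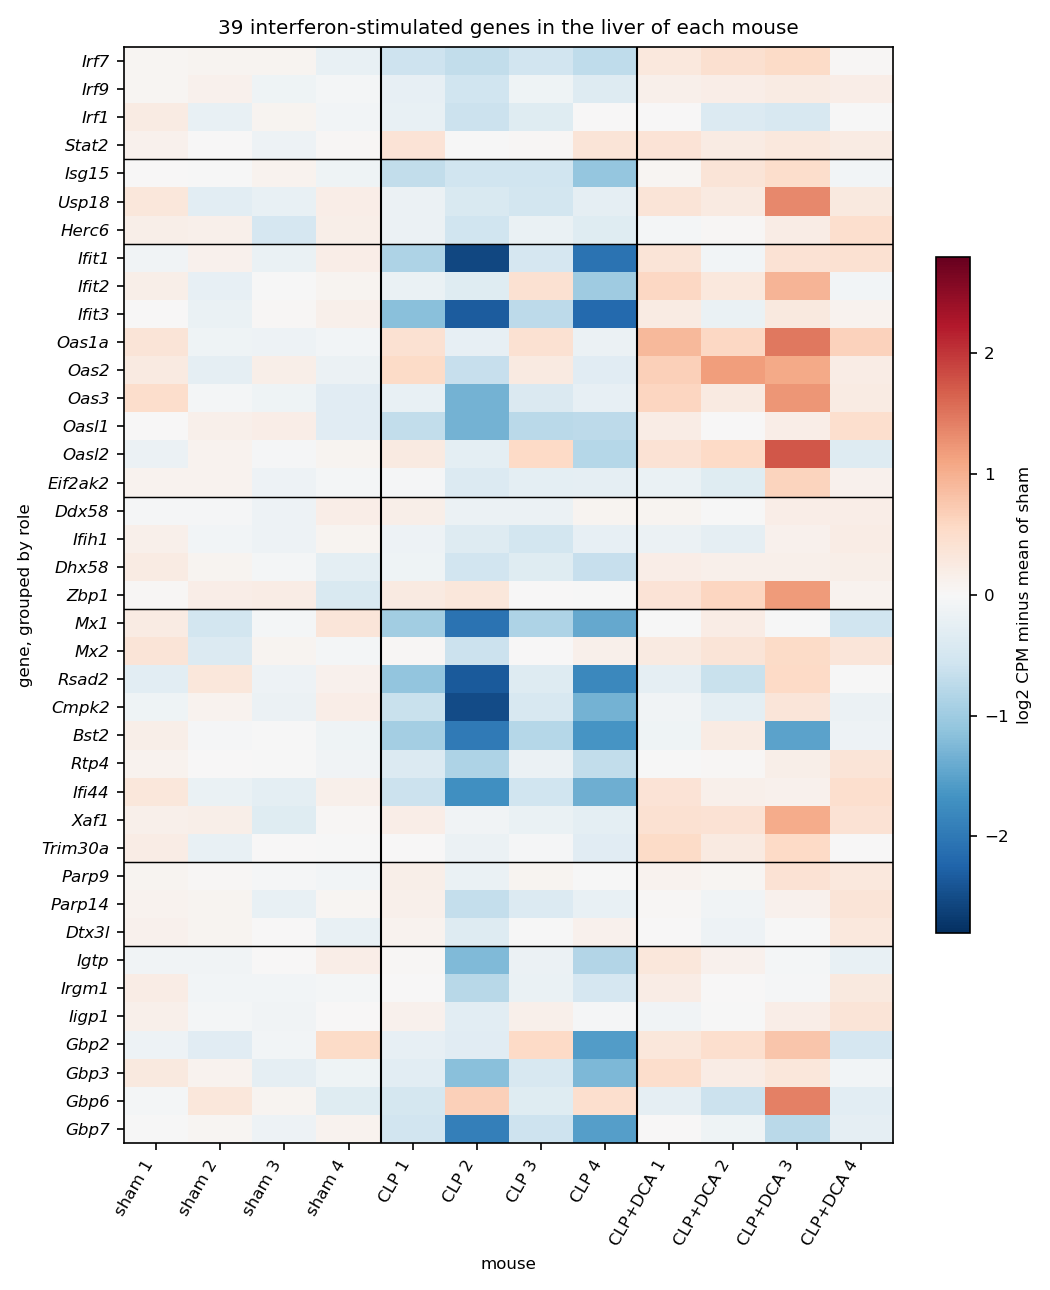
Heatmap of the 39 genes (rows, grouped by role and separated by lines) in the 12 mice (columns), coloured by log2 CPM minus the mean of the 4 sham mice. Ifit1, Ifit3, Rsad2, Cmpk2, Bst2 and Gbp7 are darkest blue in CLP 2 and CLP 4, and CLP+DCA 3 is the reddest column for Oasl2, Oas1a, Usp18 and Zbp1 while it is blue for Bst2.

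The question of CLP versus sham is which interferon-stimulated genes differ in septic liver. Relative to sham, 31 of the 38 genes other than Irf7 had a lower level in CLP and 7 a higher one, with a median log2 fold change of -0.31 against 0.02 over all 13190 genes. Isg15 (chromosome 4 from 156199424 to 156200818), Ifit3 (chromosome 19 from 34583529 to 34588982), Oasl1 (chromosome 5 from 114923240 to 114937911) and Mx1 (chromosome 16 from 97447035 to 97462906, all mm10) fell past an FDR of 0.05 over all genes (edgeR's quasi-likelihood test), where 1.14% of all genes were called lower. None of the 38 was called higher by edgeR or by any other tool run, where 1.64% of all genes were, and none was higher at an unadjusted p under 0.05. At that unadjusted threshold 15 of the 38 were lower, against 13.1% of all genes, and in 14 the CLP mice lay below every sham mouse, against 14.2%. The count of 4 depended on the fit: it was 14 without CLP+DCA 3 (when 23.8% of all genes were called in either direction), 12 without CLP 3 (7.46%), 13 with DESeq2 on all 12 mice (14.5%), and 0 or 1 without 9 of the other 10 mice, each left out in turn, with 4 again without CLP+DCA 4. In whole liver, fewer cells of a type and less RNA per cell cannot be told apart.

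In CLP+DCA versus CLP, which asks what differs 6 hr after DCA in septic liver, all 38 genes were higher, with a median log2 fold change of 0.60 against 0.01 over all genes. The exceptions under the settings tried were Gbp6, Dtx3l, Iigp1 and Irf1, whose small differences turned negative in between 1 and 4 of 22 settings. None of the 38 passed the FDR by edgeR. Of all genes 0.00758% did, which is Irf7 alone, and nothing is read from it since this comparison of Irf7 chose the list. The smallest adjusted p among the 38 was 0.0718, for Oasl1. At an unadjusted p under 0.05, 28 of the 38 were higher, against 5.06% of all genes, and in 17 the CLP+DCA mice lay above every CLP mouse, against 2.32%. DESeq2 on all 12 mice called 11 of the 38 higher (1.08% of all genes called) and voom with sample weights 13 (10.2%). Without CLP+DCA 3, edgeR called 8 higher, namely Bst2, Ifi44, Ifit3, Irf9, Isg15, Oasl1, Rtp4 and Usp18, among 4.64% of all genes called.

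The shape of Irf7, a lower level in CLP and a higher level in CLP+DCA, was shared in sign by 31 of the 38 genes, against 37.8% of all genes. In 10 of them all CLP mice lay below every sham and every CLP+DCA mouse, against 1.08% of all genes: Irf9, Isg15, Ifit1, Ifit3, Oasl1, Mx1, Cmpk2, Rtp4, Ifi44 and Gbp3. Both comparisons use the same 4 CLP mice, so their values are given side by side for each gene below and the share of signs is a description.

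**Figure D2:**
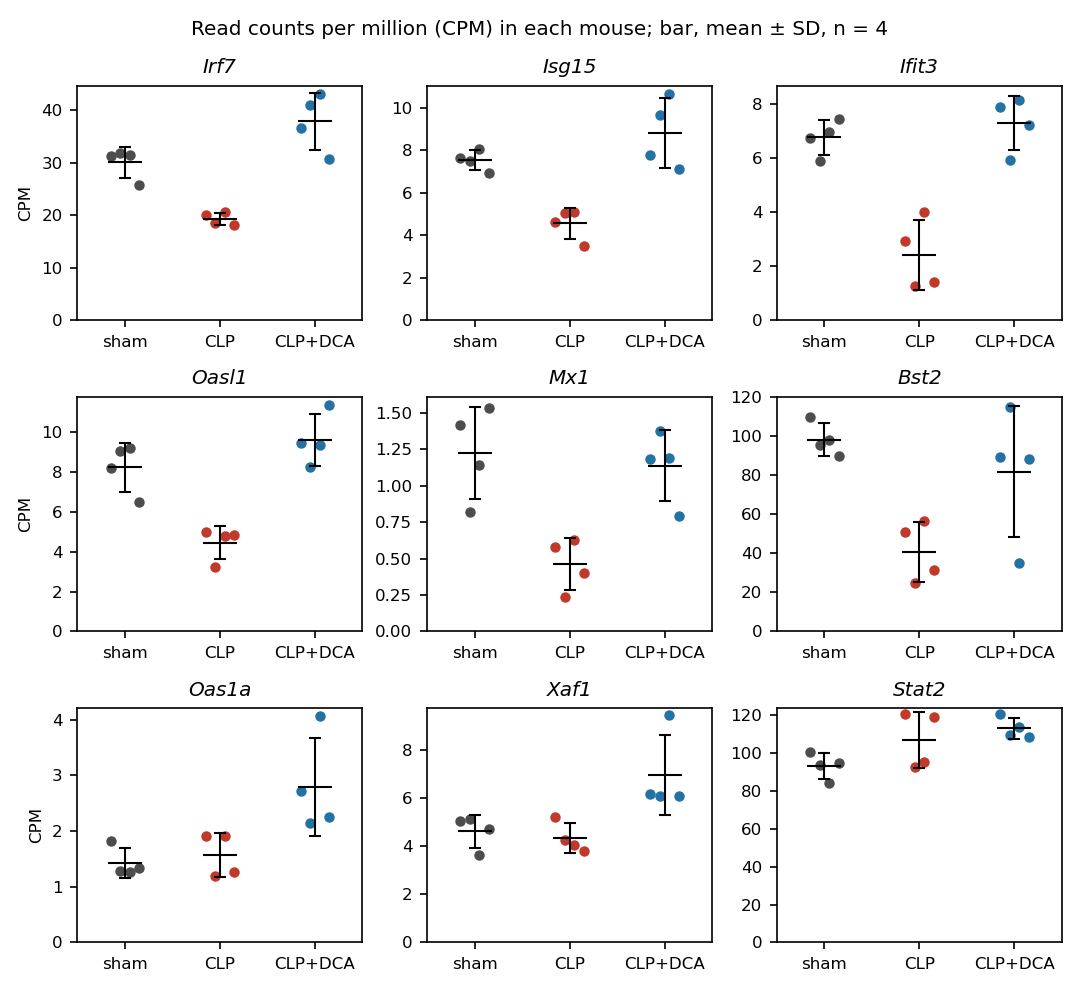
CPM of Irf7 and 8 other genes in each mouse (points; 4 mice per group), with the mean and SD (bars). Irf7, Isg15, Ifit3, Oasl1 and Mx1 are lowest in CLP, Bst2 has 1 low CLP+DCA mouse at 34.8 CPM, and Oas1a and Xaf1 are highest in CLP+DCA.

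Among the transcription factors, Irf9, the DNA-binding subunit of ISGF3, had the shape of Irf7 with smaller differences. It had 36.8, 37.96, 32.4 and 33.8 CPM in sham, 30.1, 23.8, 32.2 and 27.5 CPM in CLP, and 38.6, 40.0, 41.5 and 40.3 CPM in CLP+DCA. The CLP mice lay below all others, although CLP 3 was within 0.2 CPM of the lowest sham mouse. The log2 fold change was -0.31 (SE 0.09, adjusted p = 0.0765 from edgeR) in CLP versus sham and 0.50 (SE 0.09, adjusted p = 0.127) in CLP+DCA versus CLP. Irf1, which responds mainly to interferon-gamma, had 47.3, 35.0, 42.5 and 38.3 CPM in sham, 34.9, 26.5, 32.2 and 40.5 CPM in CLP, and 41.1, 31.2, 29.6 and 40.1 CPM in CLP+DCA. Its 3 groups overlapped, with log2 fold changes of -0.28 (SE 0.15) and 0.08 (SE 0.15). Stat2, the partner of Irf9, did not have the shape of Irf7: it averaged 93.2 ± 6.97, 106.8 ± 14.99 and 112.9 ± 5.56 CPM in sham, CLP and CLP+DCA.

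Of the genes around ISG15, a ubiquitin-like protein that is attached to other proteins during the interferon response, Isg15 itself had 7.63, 7.502, 8.07 and 6.92 CPM in sham, 4.61, 5.08, 5.08 and 3.502 CPM in CLP, and 7.79, 9.68, 10.7 and 7.13 CPM in CLP+DCA. All CLP mice were below all others. It fell by 0.72 on the log2 scale in CLP (SE 0.15, adjusted p = 0.0413 from edgeR) and differed by 0.95 between CLP+DCA and CLP (SE 0.15, adjusted p = 0.105). Usp18, the protease that removes ISG15 and also restrains the receptor, had 8.22, 5.32, 5.70 and 7.55 CPM in sham, 5.83, 4.88, 4.59 and 5.52 CPM in CLP, and 8.49, 7.83, 16.8 and 7.95 CPM in CLP+DCA. CLP+DCA 3 stood far above the other mice, and the other 3 CLP+DCA mice were also above every CLP mouse. The log2 fold change over CLP was 0.98 (SE 0.25, adjusted p = 0.248 from edgeR). Herc6, the main ISG15 ligase of the mouse, had log2 fold changes of -0.33 (SE 0.16) and 0.48 (SE 0.16).

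The 9 genes of RNA-binding effectors differed from each other in CLP: in Ifit1, Ifit3 and Oasl1 all CLP mice lay below every sham mouse, and in the others they overlapped. IFIT proteins bind viral RNA ends, and OAS proteins make the second messenger that activates RNase L. Ifit3 had 6.77, 5.92, 6.96 and 7.47 CPM in sham, 2.95, 1.29, 4.01 and 1.44 CPM in CLP, and 7.92, 5.95, 8.18 and 7.25 CPM in CLP+DCA. CLP 2 and CLP 4 were the lowest mice and rest on 27 and 32 reads. Its log2 fold change was -1.45 in CLP (SE 0.30, adjusted p = 0.0385 from edgeR) and 1.56 in CLP+DCA versus CLP (SE 0.30, adjusted p = 0.127). Ifit1, named after its values were seen, had nearly the same levels, with means of 6.25 ± 0.742, 2.56 ± 1.62 and 7.5997 ± 1.16 CPM and log2 fold changes of -1.25 (SE 0.36) and 1.53 (SE 0.36). The IFIT genes lie side by side on chromosome 19 and are paralogs, so reads could be shared between them.

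Oasl1, an OAS-like protein without synthetase activity that is known to restrain translation of Irf7, had the smallest p of the 38 in both CLP versus sham and CLP+DCA versus CLP. It had 8.18, 9.04, 9.21 and 6.48 CPM in sham, 5.0002, 3.21, 4.79 and 4.85 CPM in CLP, and 9.45, 8.27, 9.34 and 11.4 CPM in CLP+DCA. All CLP mice were below all others. The log2 fold change was -0.88 in CLP (SE 0.17, adjusted p = 0.0294 from edgeR) and 1.10 in CLP+DCA versus CLP (SE 0.17, adjusted p = 0.0718). The paralogs Oas1a, Oas2 and Oasl2 had small differences from sham in CLP, with log2 fold changes of 0.16 (SE 0.26), 0.04 (SE 0.28) and 0.04 (SE 0.41), of which those of Oas2 and Oasl2 changed sign when single mice were left out or the replicate number was a block. In CLP+DCA versus CLP they had log2 fold changes of 0.82, 0.78 and 0.77. Oas3 had few reads (5 to 64), with -0.52 (SE 0.35) and 1.19 (SE 0.34), Ifit2 had -0.18 (SE 0.31) and 0.68 (SE 0.30), and Eif2ak2, the kinase PKR, had -0.24 (SE 0.18) and 0.34 (SE 0.18).

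**Figure D3:**
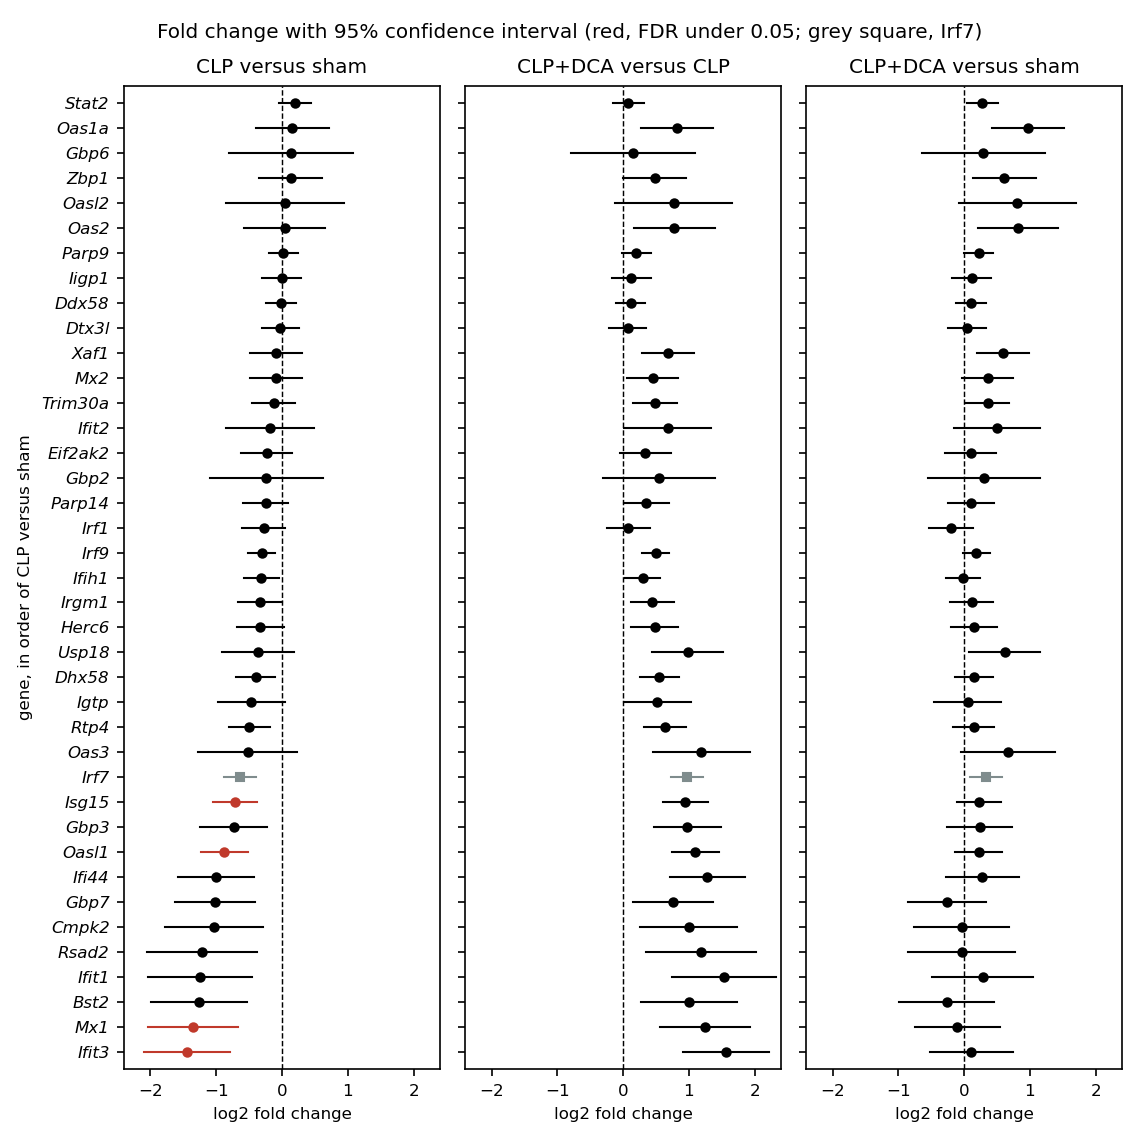
Log2 fold change (x axis, points) with its 95% confidence interval (lines) for the 39 genes in the 3 comparisons, in the order of CLP versus sham. The 4 red genes passed the FDR, the grey square is Irf7, all points of CLP+DCA versus CLP lie right of 0, and most intervals of CLP+DCA versus sham include 0.

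All 4 cytosolic sensors had a higher level in CLP+DCA than in CLP, 3 of them at an unadjusted p under 0.05 and none past the FDR by edgeR, with a median log2 fold change of 0.39. Dhx58 (LGP2), a regulator of the RIG-I-like receptors, had 10.3, 9.33, 8.52 and 7.28 CPM in sham, 8.09, 6.08, 6.96 and 5.57 CPM in CLP, and 10.03, 9.68, 9.78 and 9.83 CPM in CLP+DCA. CLP+DCA mice were above all CLP mice, while sham and CLP overlapped. Its log2 fold changes were -0.40 (SE 0.13, adjusted p = 0.0882 from edgeR) and 0.55 (SE 0.13, adjusted p = 0.216). Ifih1 (MDA5), a sensor of long double-stranded RNA, had 37.9, 32.7, 31.6 and 36.6 CPM in sham, 31.1, 27.1, 24.1 and 29.4 CPM in CLP, and 30.7, 29.04, 37.5 and 39.9 CPM in CLP+DCA. CLP lay just below sham, and CLP+DCA overlapped both, with log2 fold changes of -0.31 (SE 0.12) and 0.30 (SE 0.12). Ddx58 (RIG-I) differed by -0.01 (SE 0.10) and 0.12 (SE 0.10). Zbp1, a sensor of Z-form nucleic acids that can start necroptosis, had 17.3 ± 3.24, 18.9 ± 2.24 and 26.4 ± 9.18 CPM in sham, CLP and CLP+DCA, with 39.3 CPM in CLP+DCA 3.

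All 9 of the other antiviral effectors had a lower level in CLP than in sham and a higher level in CLP+DCA than in CLP, with medians of -1.005 and 0.99 on the log2 scale. Mx1, a dynamin-like GTPase for which C57BL/6 mice are known to carry a defective allele, had 1.41, 0.817, 1.14 and 1.53 CPM in sham, 0.576, 0.239, 0.629 and 0.404 CPM in CLP, and 1.18, 1.38, 1.19 and 0.795 CPM in CLP+DCA. The CLP mice were below all others on 5 to 26 reads. Its log2 fold change was -1.35 in CLP (SE 0.31, adjusted p = 0.0475 from edgeR) and 1.24 in CLP+DCA versus CLP (SE 0.31, adjusted p = 0.246). Ifi44 had 2.72, 1.91, 1.80 and 2.41 CPM in sham, 1.41, 0.623, 1.45 and 0.808 CPM in CLP, and 2.87, 2.42, 2.38 and 3.02 CPM in CLP+DCA, again with no overlap of CLP with the others. Its log2 fold changes were -1.005 (SE 0.26, adjusted p = 0.0588) and 1.28 (SE 0.26, adjusted p = 0.158).

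Rtp4, a chaperone of membrane receptors, had 10.97, 10.3, 10.3 and 9.55 CPM in sham, 7.90, 5.65, 9.14 and 6.33 CPM in CLP, and 10.2, 10.6, 11.6 and 13.1 CPM in CLP+DCA. It separated CLP from both other groups by narrow gaps, with log2 fold changes of -0.50 (SE 0.15) and 0.64 (SE 0.15). Rsad2 (viperin) and Cmpk2, neighbours on chromosome 12 that act on nucleotides, had log2 fold changes of -1.22 (SE 0.38) and -1.03 (SE 0.34) in CLP and 1.19 and 0.99 in CLP+DCA versus CLP. Bst2 (tetherin), which holds budding virions on the cell surface and had the highest level per exon length of the list in sham (124 RPKM), was named after its values were seen. It had 110, 95.3, 97.9 and 89.8 CPM in sham, 50.9, 24.7, 56.5 and 31.3 CPM in CLP, and 89.4, 115, 34.8 and 88.2 CPM in CLP+DCA. CLP lay below sham without overlap (log2 fold change -1.26, SE 0.33, adjusted p = 0.0615 from edgeR), and CLP+DCA 3 lay among the CLP mice while the other 3 were near the sham level. Mx2, Trim30a and Xaf1 had log2 fold changes of -0.09, -0.13 and -0.09 in CLP, each under its SE, and 0.45 to 0.68 in CLP+DCA versus CLP.

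Parp9, Parp14 and Dtx3l, an ADP-ribosylation group in which PARP9 pairs with the ligase DTX3L, had log2 fold changes of at most 0.35 in size in all 3 comparisons. Parp14 had 40.3, 39.6, 32.5 and 39.5 CPM in sham, 42.0, 23.9, 29.1 and 32.9 CPM in CLP, and 38.5, 35.4, 41.1 and 48.3 CPM in CLP+DCA, with overlap of all groups and log2 fold changes of -0.25 (SE 0.16) and 0.35 (SE 0.16). Parp9 had 54.5, 53.4, 51.1 and 48.9 CPM in sham, 58.4, 45.8, 55.1 and 51.7 CPM in CLP, and 55.4, 54.0, 68.9 and 64.1 CPM in CLP+DCA. The groups overlapped here too, and Parp9 and Dtx3l share bases on opposite strands, so their reads cannot be told apart where they overlap because no strand is known for the counts.

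The 7 GTPases, from families with members that coat and disrupt vacuoles of intracellular microbes, split again. Gbp3 had 5.17, 4.58, 3.58 and 3.88 CPM in sham, 3.48, 1.87, 3.10 and 1.75 CPM in CLP, and 6.00, 4.94, 5.31 and 4.01 CPM in CLP+DCA. The CLP mice were below all others, by 0.1 CPM in the nearest pair with sham. Its log2 fold changes were -0.74 (SE 0.23, adjusted p = 0.0813 from edgeR) and 0.97 (SE 0.23, adjusted p = 0.215). Gbp7 had 12.2, 12.8, 11.1 and 13.3 CPM in sham, 8.46, 3.21, 8.20 and 4.22 CPM in CLP, and 12.4, 11.3, 7.26 and 10.3 CPM in CLP+DCA. CLP was below sham in every mouse (log2 fold change -1.02, SE 0.28, adjusted p = 0.065), and CLP+DCA 3 lay among the CLP mice as it did for Bst2.

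Igtp and Irgm1, immunity-related GTPases, had log2 fold changes of -0.46 (SE 0.23) and -0.33 (SE 0.15) in CLP, and 0.52 and 0.45 in CLP+DCA versus CLP, with CLP 2 and CLP 4 below all sham mice and CLP 1 and CLP 3 among or near them. Iigp1, the most abundant of the group at 341 ± 24.9 CPM in sham, differed by -0.01 (SE 0.14) and 0.13 (SE 0.14). Gbp2 and Gbp6 varied too widely between mice to show a direction, with SE of 0.39 and 0.43 in CLP versus sham, and Gbp6 was highest in CLP+DCA 3 at 18.7 CPM. The GBP genes are paralogs whose reads may be shared, and Gbp2 also overlaps a microRNA gene.

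CLP+DCA versus sham asks what is left 6 hr after DCA. Here 31 of the 38 genes were higher and 7 lower, with a median log2 fold change of 0.20 against 0.01 over all genes. None passed the FDR by edgeR, where 0.0379% of all genes did, and DESeq2 and voom called 1, Oas1a. At an unadjusted p under 0.05, 8 were higher (8.14% of all genes), and in 4, Irf9, Stat2, Oas1a and Xaf1, every CLP+DCA mouse was above every sham mouse (4.8% of all genes). Oas1a, named after its values were seen, had 1.82, 1.29, 1.27 and 1.34 CPM in sham, 1.91, 1.20, 1.91 and 1.26 CPM in CLP, and 2.71, 2.15, 4.06 and 2.26 CPM in CLP+DCA. CLP mice lay on both sides of the sham mice and CLP+DCA mice above all of them, with a log2 fold change over sham of 0.97 (SE 0.25, adjusted p = 0.23 from edgeR, and 0.031 to 0.481 over the 22 settings). Xaf1, a proapoptotic partner of XIAP, had 5.06, 5.13, 3.64 and 4.73 CPM in sham, 5.23, 4.26, 4.06 and 3.82 CPM in CLP, and 6.19, 6.12, 9.48 and 6.11 CPM in CLP+DCA. Ifit3, Mx1, Rsad2, Cmpk2, Ifit1 and Isg15, which were low in CLP, had log2 fold changes over sham of -0.11 to 0.28, each with a 95% confidence interval that includes 0. Bst2 and Gbp7, also low in CLP, each had a log2 fold change of -0.26 over sham, with intervals that include 0 as well.

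Differences between mice of a group were large for many of these genes. In 23 of the 38, CLP 2 and CLP 4 were both below CLP 1 and CLP 3, against 28.4% of all genes. CLP 2 and CLP 4 have the lowest depths of the CLP mice (24436513 and 25683615 reads) and TMM factors of 0.855 and 0.868, against 0.981 and 1.05 in CLP 1 and CLP 3. Without both, which was chosen after seeing the data, 25 of the 38 genes had a lower level in CLP and the median log2 fold change over sham was -0.18, and 36 were higher in CLP+DCA than in CLP with a median of 0.39. Of 8 B cell markers, the 6 in the table had reads, and their summed level was 2.38 to 4.24 CPM in sham. It was 1.75, 0.287, 1.86 and 0.494 CPM in the CLP mice and 0.569 CPM in CLP+DCA 3 against 1.75 to 2.30 CPM in the other CLP+DCA mice, so that the CLP mice had the same order as for Bst2 and CLP+DCA 3 was the lowest of its group in both. The order of the sham mice and of the other CLP+DCA mice was not the same as for Bst2. The part of B cells in the level of Bst2 was not tested.

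CLP+DCA 3 also had the lowest summed hepatocyte markers of all mice (35640 CPM). It had the highest sums of 10 neutrophil (52.1 CPM), 10 monocyte and dendritic cell (25 CPM) and 7 cholangiocyte markers (216 CPM), all of which had reads. The monocyte and dendritic cell sum was 9.56 to 13.1 CPM in sham and 15.7 to 20.2 CPM in CLP. The sum of 8 stellate cell markers was 265.9 CPM in CLP+DCA 3, 102.8 to 109.5 CPM in the other CLP+DCA mice and 119 to 433.3 CPM in CLP. These sums are carried by their most abundant genes. Among the cholangiocyte markers, Spp1 had 66.95 ± 49.68 and Sox9 22.28 ± 32.45 CPM in CLP+DCA. Krt19, Epcam and Cldn7 varied little there, at 0.754 ± 0.0745, 0.963 ± 0.169 and 0.389 ± 0.0871 CPM. Of 8 tested neutrophil markers, 7 were higher in CLP than in sham, and Ly6g was lower. The neutrophil sum was 6.71 to 9.78 CPM in sham, 31.6 to 43.3 CPM in CLP and 6.45 to 14.8 CPM in the other CLP+DCA mice. The 10 Kupffer cell markers had 416 to 517 CPM in sham, 464 to 614 CPM in CLP and 349 to 673 CPM in CLP+DCA. The hepatocyte sum was 70490 to 92160 CPM in sham, 39090 to 52110 CPM in CLP and 58950 to 65860 CPM in the other CLP+DCA mice. Of 11 T and NK cell markers, the 10 in the table had reads, but only 26 to 147 each over the 12 mice, and 2 passed the low-count filter. The sums of the 10 were 1.34 to 3.07 CPM in sham, 0.539 to 1.28 CPM in CLP and 1.35 to 3.03 CPM in CLP+DCA. Every CLP mouse was thus below all others, by a narrow gap that rests on few reads. Of the 2 tested, Cd4 had a log2 fold change of -1.13 (SE 0.43) in CLP versus sham and Klrb1c of 0.08 (SE 0.52). The part of these cell types in the results was not tested. Leaving CLP+DCA 3 out, 37 of the 38 genes were higher in CLP+DCA than in CLP (all but Gbp6), with a median of 0.49. In 20 the CLP+DCA mice then lay above every CLP mouse, but so did those of 12.4% of all genes, against 17 of the 38 and 2.32% with all 12 mice.

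Whether the other genes follow Irf7 from mouse to mouse within a group was described by the deviations of each mouse from its group mean. Of the 38 genes, 27 (71.05%) had a positive Pearson r with Irf7 over the 12 mice, against 49.21% of the 13189 other genes, with a median r of 0.26 against -0.01. None passed Benjamini-Hochberg adjustment over the 13189 genes (smallest adjusted p = 0.875, exact permutation within groups), and 6 had an unadjusted p under 0.05 against 4.5% of all. The adjustment could hardly be passed, since the smallest possible p is 1 in 13824. A single gene could not pass it over 13189 genes, so nothing is read from its failure. The highest were Zbp1 (r = 0.83, rho = 0.70, adjusted p = 0.936, exact permutation), Isg15 (r = 0.77, rho = 0.75, adjusted p = 0.875, exact permutation), Oasl2 (r = 0.73), Oas2 (r = 0.73) and Trim30a (r = 0.55). Without the 2 mice farthest from the median of Irf7, sham 4 and CLP+DCA 4, r was 0.64 for Zbp1 and 0.73 for Isg15, and 34 of the 38 were positive with a median of 0.42. The genes of the whole table most like Irf7 in this measure were Smagp, Tmem43, Tmem5, Gng2 and Elmo1, with r from 0.86 to 0.88 and no adjusted p below 0.875. All r values above pool the 3 groups, and among the 38 genes positive r was more common within CLP than within sham or CLP+DCA. Ifit1 and Ifit3 had r of 0.94 and 0.98 in CLP, -0.65 and -0.73 in sham, and -0.41 and -0.04 in CLP+DCA. Zbp1 went the other way, with -0.06, 0.97 and 0.90 in that order. In CLP, both Irf7 and the median of the 38 were low in CLP 2 and CLP 4, the mice of lowest depth.

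**Figure D4:**
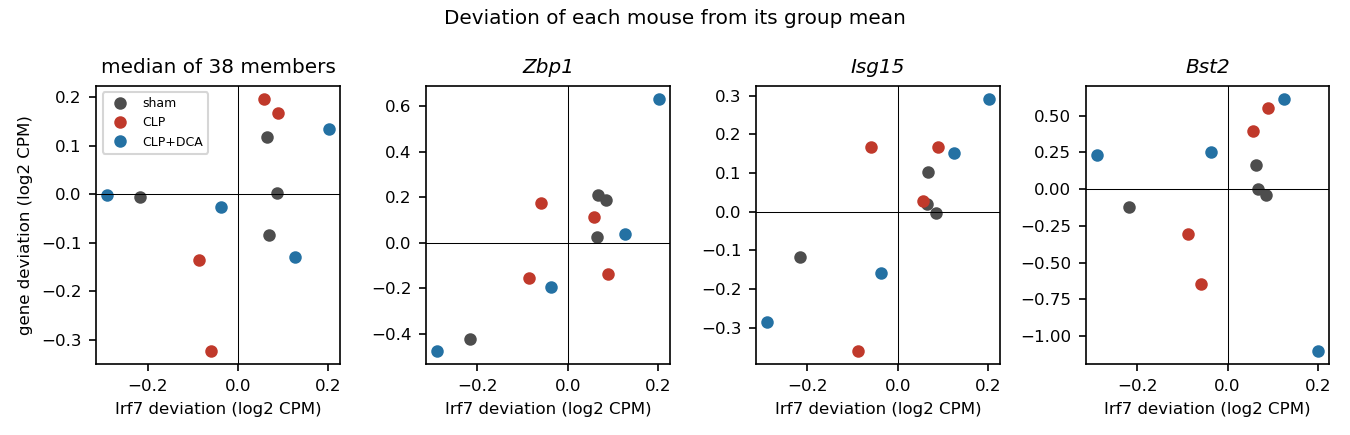
Deviation of each of the 12 mice from its group mean in log2 CPM, for Irf7 (x axis) and for the median of the 38 other genes, Zbp1, Isg15 and Bst2 (y axes, with a scale for each). Zbp1 and Isg15 are low in sham 4 and CLP+DCA 4, where Irf7 is low, and Bst2 has its lowest value in CLP+DCA 3, where Irf7 is highest in its group.

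The rest of the pathway was read from lists written from general knowledge. Of 20 interferon ligand genes, 18 had no read in any of the 12 mice, and the others, Ifnk and Ifng, had 8 and 7 reads in all, so that a change in ligand RNA was not detectable at this depth. None of the receptor subunits and kinases tested passed the FDR in any comparison by edgeR. Ifnar1, Ifngr2 and Tyk2 had log2 fold changes of 0.30, 0.61 and 0.24 in CLP versus sham and -0.19, -0.45 and -0.21 in CLP+DCA versus CLP. All 5 other IRF genes tested were lower in CLP and higher in CLP+DCA than in CLP, as were 37.8% of all genes. None of the 5 passed the FDR, with Irf5 at -0.93 (SE 0.33) and 0.30 (SE 0.33).

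Of 15 tested genes of the pathways that induce interferon, 13 were higher in CLP, against 6843 of all 13190 genes. Traf3, an adaptor upstream of the kinase TBK1, rose by 0.96 (log2, SE 0.23, adjusted p = 0.0479 from edgeR), where 1.64% of all genes were called higher. Of 14 feedback inhibitors, 11 were higher in CLP, none past the FDR, and Socs3, induced by STAT3 and a brake on JAK kinases, had a log2 fold change of 1.57 (SE 0.38, adjusted p = 0.0522). The medians of the induction and feedback lists, 0.27 and 0.25, therefore differed in sign from that of the 38 genes in CLP. Of 84 tested interferon-stimulated genes outside the list, 56 were lower in CLP (median -0.15), against 6347 of all 13190 genes. In CLP+DCA versus CLP, 76 of the 84 were higher (median 0.25), against 6801 of all 13190. Gbp10 alone of the 84 passed the FDR, where 1.14% of all genes were called lower in CLP. It fell from 5.38 ± 1.30 to 1.05 ± 0.552 CPM (log2 fold change -2.30, SE 0.50, adjusted p = 0.0415 from edgeR). At an unadjusted p under 0.05 from edgeR, 23 of the 84 were lower in CLP and 6 higher, against 1733 and 2039 of all 13190 genes. Among the 6 was Ifitm2, with a log2 fold change of 1.27 (SE 0.34).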

How the data were processed

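Per the labels, the authors prepared libraries with a TruSeq v2 kit. The authors aligned reads to mm10 with STAR 2.5 and deposited raw read counts per gene from Subread 1.5.0-p1 featureCounts, without normalization. The annotation and strand setting are not given in the sources used here. Each mouse was 1 replicate, under the group and number of its label. Genes were filtered with filterByExpr (minimum count 10), normalized by TMM and fitted in 1 robust quasi-likelihood model over 12 mice with edgeR 4.0.16 (R 4.3.3), with Benjamini-Hochberg adjustment over all 13190 genes at 0.05. SE values are the absolute log2 fold change over the square root of F. Log2 CPM used a prior count of 2, and RPKM used GENCODE exon lengths. Same-numbered mice of different groups deviated with correlations of -0.46 to 0.55, which cannot decide whether a shared number marks a shared batch. What the numbers mean is not given in the sources used here, and mice were not paired in the main fit. Within-group relations to Irf7 used 13824 permutations. Fits and permutations were tested on simulated data. Alternatives were DESeq2 1.42.0, limma 3.58.1 (voom), other scalings, no filter, the replicate block and leaving out mice. The members and lists were chosen with earlier results of these data known. Named with every mouse's value are Irf7, genes past the threshold and the 2 genes of smallest p in each role. Intervals are 95% confidence intervals of the log2 fold change between groups from the edgeR fit, and do not give the range of single mice. An item of these lists is not reported here.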

Additional observations from a re-analysis of the deposited data

Results flagged for a closer look

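Each of the 39 genes was examined in each group of 4 mice for a mouse that stands apart from the other 3, which chance gives in about 1 of 20 groups. Of 117 groups, 9 had such a mouse. In sham, Irf7 was low in sham 4 (25.8 CPM, others 31.3 to 31.8), Herc6 (11.97 CPM, others 18.4 to 18.8) and Parp14 (32.5 CPM, others 39.5 to 40.3) were low in sham 3, and Oas1a (1.82 CPM, others 1.27 to 1.34) and Irgm1 (71.3 CPM, others 58.4 to 59.7) were high in sham 1. In CLP, Oasl1 was low in CLP 2 (3.21 CPM, others 4.79 to 5.0002). In CLP+DCA, Usp18 (16.8 CPM, others 7.83 to 8.49) and Xaf1 (9.48 CPM, others 6.11 to 6.19) were high in CLP+DCA 3, and Ifit1 was low in CLP+DCA 2 (5.88 CPM, others 7.95 to 8.33).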

How the results depend on the processing

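The direction of the median over the 38 genes was kept under all alternatives in all 3 comparisons, and no gene that was called in any fit changed sign in another fit. Counts of called genes depended on the fit. The share of all genes called under the same fit is given in parentheses. In CLP versus sham, edgeR called 4 (2.78%), and the count was 2 without a filter on low counts (0.647%), 13 with DESeq2 on all 12 mice (14.5%), 14 with DESeq2 (26%) and 8 with edgeR (18.3%) on the 8 mice compared, 13 with voom (26.2%), 1 with the replicate block (Isg15, 0.349%), and 0 to 14 when single mice were left out (0.0749 to 23.8%). Without CLP 2 and CLP 4 together it was 0 (0.00731%). In CLP+DCA versus CLP, it was 0 with edgeR, 11 and 7 with DESeq2 on 12 and on 8 mice (1.08% and 0.664%), 13 with voom (10.2%) and 0 to 8 when single mice were left out (0 to 4.64%), and the median of 0.60 became 0.39 without CLP 2 and CLP 4. In CLP+DCA versus sham, it was 0 with edgeR and 1 with DESeq2 on 12 mice (1.9%), DESeq2 on 8 mice (1.33%) and voom (3.76%). The replicate block gave 0 in both of these comparisons. The cause of these shifts was not tested. With 4 mice per group and few reads on Mx1, Ifit3 or Oas3 in CLP 2 and CLP 4, small differences were not detectable.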
